A study of Sus scrofa with 6 samples.

Results

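The arrays titled DC XCR1+ (2 arrays) were compared with the arrays titled DC XCR1- (2 arrays), which makes 4 of the 6 pig blood arrays analysed here, and the other 2 held plasmacytoid dendritic cells (pDC). All were of Sus scrofa peripheral blood from adult control pigs without treatment. The members of the comparison were chosen by the array titles alone and not by any measured value. The study sorted the XCR1+ DC as candidates for type 1 conventional dendritic cells (cDC1) and the XCR1- DC as candidates for type 2 (cDC2). These names were given at the sort and are not assignments made from the arrays. The study asked whether such subsets correspond across distant mammals.

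Both groups were sorted by flow cytometry on a shared gate of large cells (high forward scatter) that bore MHC class II and lacked immunoglobulin light chain, IgG, IgM, CD4, and CD14. Within it, XCR1+ DC were CADM1+ with low CD172. For XCR1- DC the protocol gives CADM1- cells with high or intermediate CD172. The study sorted these as 2 separate candidates and left the intermediate one out of its further analyses. The cell type labels of the arrays do not say which was hybridised. The pDC were CD3-, CD14-, and CD4+ with intermediate CD172. CADM1 and SIRPA, whose product is CD172A, were therefore part of the sort, and the direction of their transcripts is not independent of it. The XCR1 protein was not among the sorting antibodies listed. Before the arrays, however, the study checked XCR1, TCF4, FLT3, BATF3, and CD14 transcripts by quantitative PCR in sorted cells. It left the intermediate CD172 candidate out for relatively high TCF4 and XCR1. Levels of these 2 transcripts in XCR1- DC may therefore not be independent of that choice. RNA of distinct animals was mixed where a sort gave too little of it, and the sample labels do not say which animals stand behind an array. In the column names of the deposited log2 table, the first XCR1+ DC array, the first XCR1- DC array, and the second pDC array share a code. The second XCR1+ DC and second XCR1- DC arrays have codes that differ but have characters in common, and the first pDC array has another code. What the code means is not given in the sources used here, so a pairing of arrays across the groups is possible but not stated. A fit with each distinct code as a block of its own leaves no residual degree of freedom. The series' design text names a single pig for CADM1+ cells although 2 arrays carry that label, so the p-values given here measure the spread between arrays, which may be in part technical.

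Dendritic cells take up, process, and display antigen to T cells. Conventional dendritic cells of type 1 depend on the transcription factors BATF3, ID2, and IRF8, carry the chemokine receptor XCR1, and are known for presenting the antigens of dead cells to CD8 T cells. Those of type 2 carry SIRPA and are known for activating CD4 T cells, and they share several surface molecules with monocytes, from which they are hard to separate by sorting. Both kinds grow under FLT3 ligand, whereas monocytes and macrophages depend on the CSF1 receptor.

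Each array was read in 1 colour (Cy3) and carried 42018 gene spots. A level here is the log2 of the scanner software's background-corrected signal minus the 75th percentile of that array, so 0 is the brightness that 75% of the gene spots stay below, and differences are XCR1+ DC minus XCR1- DC on that log2 scale. Levels of different probes depend on the probe as well as on the RNA and are not set against each other. Between 54.3% and 64.1% of gene spots were well above background on the 4 arrays, as the scanner software calls it, and no gene spot was saturated. The second XCR1+ DC array had the lowest share, and its lowest signal well above background lay at a level of -4.18, against -5.52 to -4.93 on the other 3 arrays compared. Arrays of the same group correlated across tested probes at 0.984 (XCR1+ DC) and 0.990 (XCR1- DC), and arrays of different groups at 0.916 to 0.923.

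Differences were tested with limma, which borrows information about the spread from all probes, on 26372 probes, those for which at least 1 of the 3 cell types had both of its arrays well above background. After Benjamini-Hochberg adjustment at 0.05, 16.0% of the tested probes differed, 7.78% (2053 probes) being higher in XCR1+ DC and 8.26% (2179 probes) higher in XCR1- DC. The median difference over all tested probes was 0.05, and the median size without regard to sign was 0.45. Both directions reached far. Of the probes higher in XCR1+ DC, 1012 passed 4-fold, 279 passed 16-fold, and 57 passed 64-fold. Of those higher in XCR1- DC, 1140 passed 4-fold, 335 passed 16-fold, and 34 passed 64-fold. These counts use measured folds, also for probes that were at background in 1 group, where the measured fold can exceed what the signal bounds. XCR1, for instance, counts at 146-fold with a bound of 50.0-fold, and SIRPA at 68.9-fold with a bound of 34.5-fold. The smallest differences to pass the test were 0.85 and 0.87 in the 2 directions, which is close to 2-fold. Larger ones did not always pass. Among differences between 1 and 1.5 in size, 757 probes toward XCR1+ DC and 614 toward XCR1- DC did not. Of all 41901 probes, 463 passed the background call on both XCR1+ DC arrays and on neither XCR1- DC array, and 618 the other way round. Both counts depend on the lowest signal that passed on each array, which was highest on the second XCR1+ DC array.

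**Figure D1:**
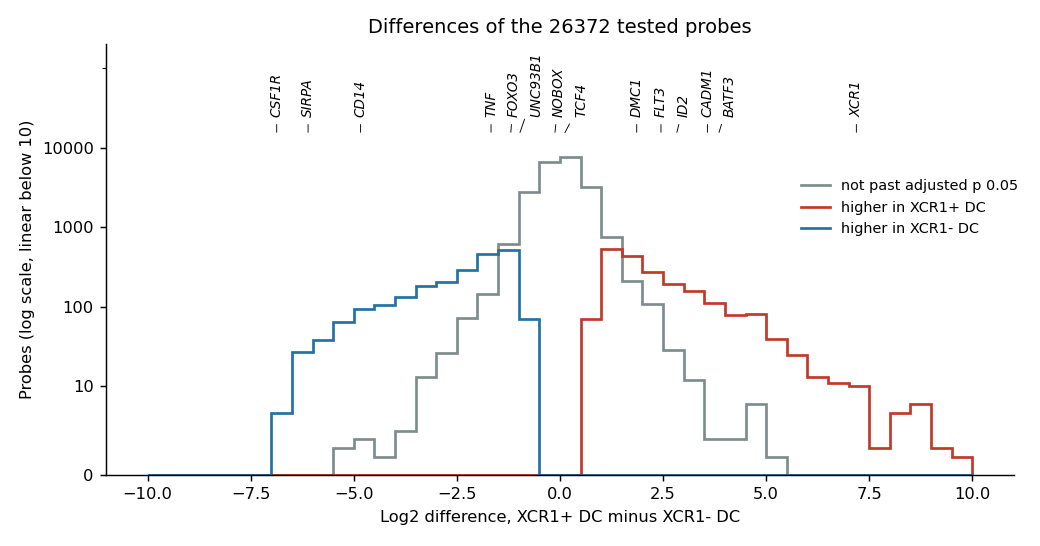
Number of tested probes (vertical axis, log scale that is linear below 10) by log2 difference of XCR1+ DC minus XCR1- DC (horizontal axis, bins 0.5 wide), in separate outlines for probes that passed the limma test in each direction and those that did not. Gene symbols mark the 14 tested genes. The measured difference of XCR1 is 7.19 and that of CSF1R -6.87, both far out on their sides, whereas TCF4 and NOBOX lie beside 0.

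A gene symbol was given in the files for 27 probes of 23 genes, and 14 of these genes passed the filter on dim signal. Of those 14 genes, each read by its brightest probe, 5 were higher in XCR1+ DC (XCR1, BATF3, CADM1, ID2, and FLT3), 5 were higher in XCR1- DC (CSF1R, SIRPA, CD14, FOXO3, and UNC93B1), and 4 did not pass the test (TNF, TCF4, DMC1, and NOBOX). The designers of the array marked 14 of the 23 genes as positive and 9 as negative in the probe names, and most genes marked positive are ones known from dendritic cells or monocytes, so the share of genes that differed cannot be read against the 16.0% of all probes as a result. The files give no genome coordinates for the probes, and none are printed.

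**Figure D2:**
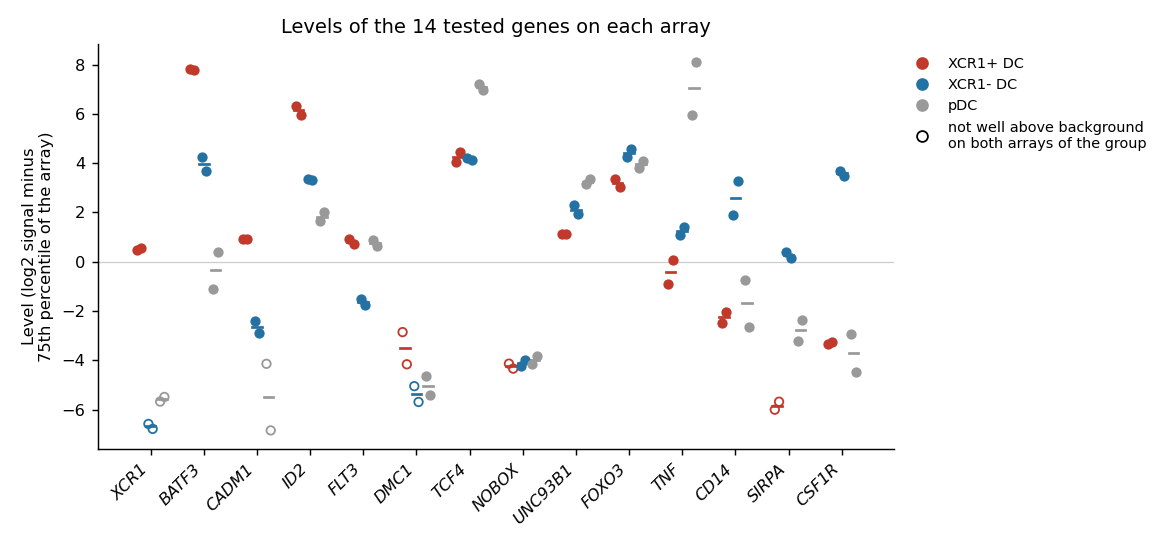
Level on each array (vertical axis, log2 signal minus the array's 75th percentile) of the 14 tested genes (horizontal axis, ordered by difference), with points for single arrays and bars for the mean of 2 arrays in XCR1+ DC, XCR1- DC, and pDC. Open points mark groups with fewer than 2 arrays on which the probe was well above background. The XCR1+ DC and XCR1- DC points lie apart for every gene except TCF4 and NOBOX, as they do for 67.6% of all tested probes.

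XCR1, the receptor for the chemokine XCL1 and the most specific surface mark of cDC1, stood at 0.47 and 0.54 on the XCR1+ DC arrays and at -6.58 and -6.78 on the XCR1- DC arrays, where it was not well above background on either. The pDC arrays gave -5.68 and -5.49, also not well above background. XCR1 was thus bright in one group and at background in the other. The sorting antibodies had not used it, but the study's choice among sorted candidates had used its transcript. Low XCR1 in XCR1- DC may therefore be in part selected for. With the lowest signal well above background standing in for the dim arrays, XCR1 was at least 50.0-fold higher in XCR1+ DC (limma, adjusted p = 0.00035; measured means 0.51 and -6.68). Its 60-base probe is shown because it is the clearest on-off difference among the named genes:
XCR1 probe: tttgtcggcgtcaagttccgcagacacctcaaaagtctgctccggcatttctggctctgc
The array carries this sequence under 2 further probe names, which gave differences of 7.29 and 6.57. The size of a difference from a dim group depends on how background is treated. It was 4.87 in the authors' normalized values and 2.83 after normexp background correction, an additive model of background with an offset of 50 that raises dim signals, and it passed the test in both.

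BATF3, the transcription factor on which cDC1 depend in mice, stood at 7.81 and 7.77 on the XCR1+ DC arrays against 4.23 and 3.68 on the XCR1- DC arrays. It was well above background on every array, and in pDC it lay lower still, at -1.11 and 0.41. Its level was 14.2-fold higher in XCR1+ DC (difference 3.83, SE 0.51; limma, adjusted p = 0.0052). The gap between groups was large beside the gap within them, which was 0.04 in XCR1+ DC and 0.55 in XCR1- DC. A probe without a symbol overlaps the start of the BATF3 probe, and the pig BATF3 primers that the study lists for quantitative PCR match it. Both probes and the primers are shown with the shared bases in capitals, which mark the overlap of the probes in the first pair and the match to the unnamed probe in the second:
BATF3 probe: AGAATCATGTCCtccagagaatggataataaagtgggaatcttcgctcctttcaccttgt
Unnamed probe: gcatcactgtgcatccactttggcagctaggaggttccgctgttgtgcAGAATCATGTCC
BATF3-F primer: tcaaGCATCACTGTGCATCCA
BATF3-R primer: ggaGGACATGATTCTGCACAAC
The probes share 12 bases. The forward primer shares 17 of its 21 bases with the unnamed probe, and the reverse primer, read on the opposite strand, shares 19 of its 22. No other pig primer of the 5 pairs listed shared a run of 15 bases with any probe. The unnamed probe stood at 9.04 and 9.07 in XCR1+ DC against 5.52 and 5.07 in XCR1- DC, a difference of 3.76 (SE 0.60; limma, adjusted p = 0.0098). Both probes thus gave nearly the same difference. The unnamed probe was chosen for its sequence after its values could be seen.

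ID2, an inhibitor of E proteins that conventional dendritic cells need and pDC keep low, stood at 6.33 and 5.97 in XCR1+ DC, at 3.35 and 3.33 in XCR1- DC, and at 1.63 and 2.01 in pDC. XCR1+ DC and XCR1- DC did not overlap, as for 67.6% of all tested probes, and the pDC levels lay below both. ID2 was 7.03-fold higher in XCR1+ DC than in XCR1- DC (difference 2.81, SE 0.26; limma, adjusted p = 0.0016), and 2 further probes of the same sequence gave 2.93 and 2.83. TCF4, the E protein that ID2 opposes and that directs pDC, did not separate the groups. It stood at 4.06 and 4.46 in XCR1+ DC and at 4.23 and 4.14 in XCR1- DC, with both XCR1- DC values between those of XCR1+ DC. The difference was 0.08, with a 95% interval from -0.54 to 0.70 (limma, adjusted p = 0.87), so the data do not exclude a difference of up to about that size. In pDC TCF4 stood at 7.21 and 6.96.

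FLT3, the receptor through which FLT3 ligand drives dendritic cell growth, stood at 0.90 and 0.73 in XCR1+ DC and at -1.50 and -1.76 in XCR1- DC. The pDC levels of 0.86 and 0.64 lay beside those of XCR1+ DC. FLT3 was well above background on all 6 arrays, and it was 5.46-fold higher in XCR1+ DC than in XCR1- DC (difference 2.45, SE 0.24; limma, adjusted p = 0.002). After normexp correction the difference was 1.84. An unnamed probe that reads the opposite strand covers 40 bases of the FLT3 probe. The pair is shown with the complementary bases in capitals because its levels differ by strand:
FLT3 probe: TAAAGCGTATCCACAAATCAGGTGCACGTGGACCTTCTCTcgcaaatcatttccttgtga
Opposite strand probe: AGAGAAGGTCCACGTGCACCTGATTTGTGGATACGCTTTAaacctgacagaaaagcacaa
The opposite strand probe stood at 0.23 and 0.38 in XCR1+ DC against -2.78 and -1.92 in XCR1- DC (difference 2.65, SE 0.48; limma, adjusted p = 0.015). In pDC it stood at -1.38 and -2.61. Both probes were thus higher in XCR1+ DC than in XCR1- DC, but in pDC the FLT3 probe lay at the XCR1+ DC level and the opposite strand probe near the XCR1- DC level. Whether the opposite strand probe reads an antisense RNA or labelled product of the other strand was not tested.

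CADM1, an adhesion molecule of the immunoglobulin family, is covered by 2 probes with a symbol. The brighter stood at 0.91 and 0.93 in XCR1+ DC against -2.41 and -2.91 in XCR1- DC, and at -4.14 and -6.85 in pDC. The XCR1+ DC arrays agreed closely, while the pDC arrays lay 2.70 apart and entered the same estimate of spread. The transcript was 11.9-fold higher in XCR1+ DC (difference 3.58, SE 0.81; limma, adjusted p = 0.032), and the dimmer probe gave a difference of 4.04 (SE 0.23; limma, adjusted p = 0.00046). After normexp correction these were 2.47 and 1.58. The dimmer probe lay near background outside XCR1+ DC. It was well above background on only 1 XCR1- DC array, with levels of -5.13 and -4.94 there, and on neither pDC array. The direction follows the CADM1+ gate. With any 1 of the 4 arrays left out, the brighter probe did not pass (limma, adjusted p between 0.10 and 0.18) and the dimmer one did (between 0.0037 and 0.0094).

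CLEC9A, a receptor for dead cells that marks cDC1 in other species, did not give a signal well above background on any of the 4 arrays. Its levels were -6.17 and -5.96 in XCR1+ DC and -6.14 and -6.05 in XCR1- DC, and the probe passed on 1 pDC array, at -4.58. No other probe with its symbol was on the array. Of the 17 genes listed as cDC1 identity genes, 6 had a probe with a symbol, 5 were tested, and all 5 were higher in XCR1+ DC, beside 7.78% of all tested probes. The median difference of the 5 was 3.58, beside 0.05 over all tested probes. It is the value of CADM1, which the sort used, and stays the same with XCR1 at its bound. FLT3 was also listed as shared by conventional dendritic cells, and in pDC it lay beside its XCR1+ DC level. The list was chosen with earlier results of these data known, and the designers of the array had marked all 5 as positive. The 5 genes therefore cannot be read against the values of all tested probes as a result.

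CSF1R, the receptor for the growth factor of monocytes and macrophages, gave the largest difference toward XCR1- DC among all tested probes that were well above background on all 4 arrays. It stood at 3.68 and 3.48 on the XCR1- DC arrays and at -3.32 and -3.25 on the XCR1+ DC arrays, so that neither group varied by more than 0.20 between its arrays. In pDC it stood at -2.95 and -4.48. CSF1R was 117-fold higher in XCR1- DC (difference -6.87, SE 0.49; limma, adjusted p = 0.00074). Its probe is shown for this rank:
CSF1R probe: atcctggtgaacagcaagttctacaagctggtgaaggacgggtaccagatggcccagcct
The probe SS_S1A_ENSG182578 carries the same 60 bases and gave -6.84. In the authors' normalized values the difference was -6.15, and after normexp correction it was -5.22.

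CD14, the co-receptor for bacterial lipopolysaccharide that monocytes display, stood at 1.90 and 3.26 in XCR1- DC and at -2.47 and -2.03 in XCR1+ DC. The XCR1- DC arrays lay 1.36 apart, more than the arrays of either group for BATF3, ID2, FLT3, or CSF1R, and the second was the higher. In pDC the levels were -0.73 and -2.66. CD14 was 28.5-fold higher in XCR1- DC (difference -4.83, SE 0.72; limma, adjusted p = 0.0076), although cells with the CD14 protein had been gated out of both groups. Without the second XCR1- DC array the adjusted p was 0.059. After normexp correction the difference was -3.81. The probe sequence is also on the array under 2 other names, which both gave -4.85:
CD14 probe: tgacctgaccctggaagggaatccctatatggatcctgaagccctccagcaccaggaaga

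SIRPA, which gives macrophages and cDC2 the CD47 receptor CD172A used in the sort, stood at 0.39 and 0.13 in XCR1- DC and at -6.00 and -5.68 in XCR1+ DC, where it was not well above background on either array. In pDC it stood at -3.21 and -2.35. The groups lay far apart, in the direction of the gate. SIRPA was at least 34.5-fold higher in XCR1- DC (limma, adjusted p = 0.00046; measured means 0.26 and -5.84), a bound that becomes 21.7-fold without the first XCR1+ DC array. The difference of -6.11 became -4.51 in the authors' normalized values and -2.55 after normexp correction. An unnamed probe begins inside the SIRPA probe, and the pair is shown with the shared bases in capitals because the 2 probes disagree on the XCR1+ DC level:
SIRPA probe: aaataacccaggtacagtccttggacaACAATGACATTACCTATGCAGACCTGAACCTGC
Unnamed probe: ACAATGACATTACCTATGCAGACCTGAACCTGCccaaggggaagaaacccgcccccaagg
The unnamed probe shares 33 bases and was well above background on all 6 arrays. It stood at 0.70 and 0.72 in XCR1+ DC and at 2.76 and 2.81 in XCR1- DC, and at 1.70 and 2.47 in pDC. Its difference was -2.08 (SE 0.31; limma, adjusted p = 0.0078), or 4.22-fold. Both probes put XCR1- DC higher, but 1 shows no signal above background in XCR1+ DC where the other shows a clear one. Which transcripts the unnamed probe binds was not tested.

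**Figure D3:**
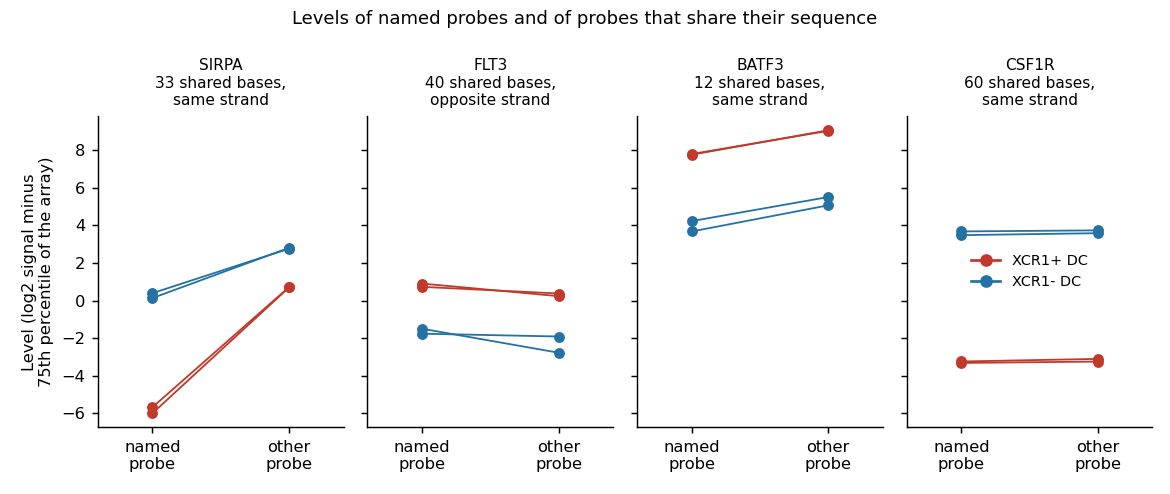
Level on each of the 4 arrays (vertical axis, log2 signal minus the array's 75th percentile) for the named probe of SIRPA, FLT3, BATF3, and CSF1R and for another probe that shares bases with it, with a line joining the values of each array. In XCR1+ DC the named SIRPA probe lay at background and the other did not, whereas for CSF1R, where the sequence is the same, both probes gave nearly the same levels, with gaps between the groups of 6.87 and 6.84.

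The markers measured in XCR1+ DC go with their cDC1 label apart from the dim CLEC9A probe. For the XCR1- DC the markers were mixed. FLT3, ID2, and BATF3 were detected on both arrays and lower than in XCR1+ DC. SIRPA was high, but its product was part of the sort. Of the 17 genes listed as monocyte and macrophage markers, CD14 and CSF1R were measured. Both were higher than in XCR1+ DC, beside 8.26% of all tested probes. The designers of the array had marked both as positive, so they cannot be read against that share. The log2 of the summed CD14 and CSF1R signal stood at 4.05 and 4.38 in XCR1- DC against -1.83 and -1.52 in XCR1+ DC. This sum weights each gene by the brightness of its probe, and CD14 alone lay 1.36 apart between the XCR1- DC arrays. SIRPA was the only 1 of 12 listed cDC2 genes that had a probe with a symbol. It does not tell cDC2 from monocytes here, since the study's marker list gives its product for both and the sort used it. The group is therefore called XCR1- DC here. The study went on to assign its sorted candidates with further measures, which are not reported here. In sorted bulk RNA, a few cells with much CD14 or CSF1R and many cells with some cannot be told apart. None of the 9 listed B cell genes or of the 11 listed T and NK cell genes had a probe with a symbol. Probes without a symbol were not searched for these genes, so such cells were not looked for.

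UNC93B1, which escorts endosomal Toll-like receptors from the endoplasmic reticulum, stood at 1.13 and 1.10 in XCR1+ DC, 2.31 and 1.92 in XCR1- DC, and 3.13 and 3.35 in pDC. The levels were close within groups and did not overlap between XCR1+ DC and XCR1- DC, as for 67.6% of all tested probes. Its 2.00-fold difference was just past the threshold (difference -0.998, SE 0.25; limma, adjusted p = 0.046), and a second probe of the same sequence gave -0.95 with an adjusted p of 0.050 in limma, just outside it. With the replicate number as a block the adjusted p was 0.066, and without any 1 of the 4 arrays it lay between 0.13 and 0.27.

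FOXO3, a forkhead transcription factor that responds to growth factor signals, stood at 3.37 and 3.05 in XCR1+ DC and at 4.25 and 4.56 in XCR1- DC by its brighter probe, with pDC at 3.81 and 4.09. It was 2.29-fold higher in XCR1- DC (difference -1.20, SE 0.26; limma, adjusted p = 0.03). The second FOXO3 probe gave -1.15 (SE 0.23; limma, adjusted p = 0.021). Both probes gave a like difference, and neither passed the test once any 1 of the 4 arrays was left out, the adjusted p reaching 0.20 for the brighter.

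Of the cytokine genes, TNF was the one measured in both groups. It stood at -0.89 and 0.06 in XCR1+ DC and at 1.10 and 1.41 in XCR1- DC, against 5.97 and 8.09 in pDC. The groups did not overlap, as for 67.6% of all tested probes, but the difference of -1.67 (SE 0.70; 95% interval from -3.37 to 0.03) did not pass the test (limma, adjusted p = 0.18). The pDC arrays lay 2.12 apart and enter the shared estimate of spread, and in a fit to the 4 arrays alone the adjusted p was 0.041. IL12A and IL12B, the subunits of interleukin 12, were not well above background on any of the 6 arrays. A second probe of the IL12B sequence was likewise not well above background on any array.

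Of the 8 genes of the germ line, hormone response, or other tissues, 6 (CYP26B1, ESR1, ESR2, MAEL, SPO11, and STRA8) were not well above background on any XCR1+ DC or XCR1- DC array. NOBOX, an oocyte transcription factor, was tested and lay between -4.34 and -3.97 on the 4 arrays, with overlapping groups (difference -0.13, 95% interval from -0.75 to 0.49; limma, adjusted p = 0.79). DMC1, a meiotic recombinase, stood at -2.86 and -4.16 in XCR1+ DC and at -5.05 and -5.69 in XCR1- DC, with only the first array of each group well above background. It was tested because both pDC arrays passed the background call. Its difference of 1.86 (SE 0.52) did not pass (limma, adjusted p = 0.061), and it did in a fit with a replicate block (0.014) and in 1 without the second XCR1+ DC array (0.036). The dimmer DMC1 probe was well above background on the first XCR1+ DC array alone.

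Each named probe was spotted 5 times per array, with 4 spots left for some after outlier spots were removed, and the SD of its spots within an array had a median of 0.05 over the probes well above background on all 4 arrays. For the 14 tested genes, the gap between the 2 arrays of XCR1+ DC or of XCR1- DC ranged from 0.02 for ID2 and CADM1 to 1.36 for CD14. Its median over all tested probes was 0.24 in XCR1+ DC and 0.23 in XCR1- DC. Across the array, 388 probes share their 60 bases with at least 1 other probe. In the 169 such pairs in which both were tested, the log2 differences lay 0.06 apart at the median and 160 pairs gave the same call, with none called in opposite directions. Of the named genes, 13 had such a second copy, and 11 of the 12 tested copies gave the call of the named probe, UNC93B1 being the exception.

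The scan days recorded in the scanner headers split the arrays. The first XCR1+ DC array, the first XCR1- DC array, and both pDC arrays were scanned on 1 day, and each of the other 2 arrays on a day of its own. The pair scanned together gave differences of 7.05 for XCR1, 3.58 for BATF3, 3.32 for CADM1, 2.99 for ID2, and 2.40 for FLT3. Toward XCR1- DC the same pair gave -7.01 for CSF1R, -6.40 for SIRPA, -4.37 for CD14, -1.18 for UNC93B1, and -0.88 for FOXO3. The XCR1 and SIRPA values are measured against arrays on which they were not well above background, and the pair is part of the arrays tested above. With scan day as a block, chosen after the data were seen, only this pair bears on the comparison and its spread is taken from the pDC pair and the prior alone. Under that fit, 594 probes passed, among them 3 of the 10 genes, namely XCR1, SIRPA, and CSF1R.

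**Figure D4:**
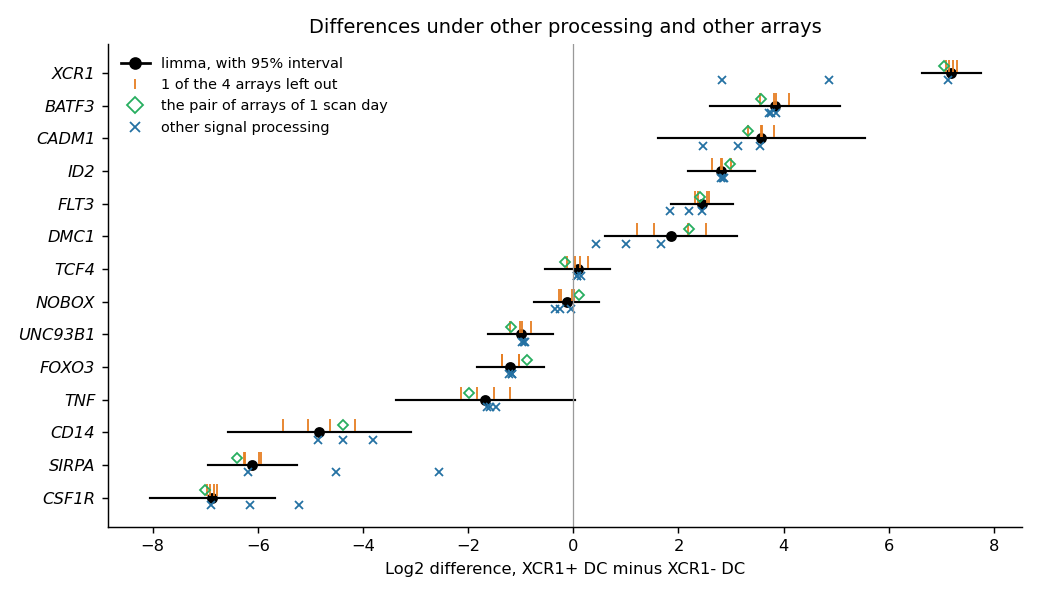
Log2 difference of XCR1+ DC minus XCR1- DC (horizontal axis) for each tested gene, with the limma estimate and its 95% interval, the values with each of the 4 arrays left out, the difference of the pair scanned on the same day, and the values under 3 other ways of processing the signal (normexp background correction, quantile normalization, and the authors' normalized values). The points of XCR1 and SIRPA spread widely under other signal processing, from 7.13 to 2.83 and from -6.19 to -2.55.

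In several steps and at several thresholds, the study selected genes by the ratio of the lowest array of a test group to the highest array of a reference group. At a threshold of 2-fold, used here, 7.67% of tested probes lay above 2-fold toward XCR1+ DC and 7.75% toward XCR1- DC. Of the 4232 probes that passed limma, 3576 also passed this ratio and 656 did not. On the log2 scale the ratio was at least 5.40 for XCR1, 3.54 for BATF3, 3.32 for CADM1, 2.62 for ID2, and 2.23 for FLT3 toward XCR1+ DC. Toward XCR1- DC it was 6.73 in size for CSF1R, at least 4.31 for SIRPA, 3.94 for CD14, and 1.04 for TNF, whereas FOXO3 at 0.88 and UNC93B1 at 0.79 stayed under 2-fold. TNF thus passed the 2-fold ratio and not the test, and FOXO3 and UNC93B1 passed the test and lay above 1 but under 2-fold in the ratio.

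Most of the largest differences belong to probes that no source used here names. Among probes without a symbol that were well above background on all 4 arrays, A_72_P177411 stood at 6.36 and 6.25 in XCR1+ DC and at -3.44 and -2.90 in XCR1- DC. Its difference was 9.48 (SE 0.70; limma, adjusted p = 0.00082). The next, A_72_P165471, stood at 4.16 and 3.61 against -5.01 and -4.43 (difference 8.60, SE 0.61; limma, adjusted p = 0.00073). Toward XCR1- DC, the second copy of the CSF1R sequence led, followed by A_72_P165431, which stood at 2.93 and 3.00 in XCR1- DC and at -3.09 and -3.65 in XCR1+ DC (difference -6.33, SE 0.64; limma, adjusted p = 0.0021). BATF3 ranked at 108 among the probes well above background on all 4 arrays that were higher in XCR1+ DC, ID2 at 273, and FLT3 at 377.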

How the data were processed

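The authors deposited the spot table of Agilent Feature Extraction 10.7.3.1 for each array, with intensity values on a linear scale (1-colour custom porcine array, 60-base probes), and a table of normalized log2 values, made with limma per the labels. Its scaling is not given in the sources used here. The sorted values of its columns are nearly identical, as quantile normalization leaves them. Of its 11 columns, 5 were not used. The genome build is not given in the sources used here.

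From the scanner intensity, the log2 background-corrected signal was taken and the 75th percentile of the array subtracted. The 1417 control spots and 19 gene spots with an outlier flag were left out and spots of a probe averaged, which left 41901 probes, of which 15529 were too dim to be tested. limma 3.58.1 in R 4.3.3 was fitted over all 6 arrays with 1 coefficient per cell type, without trend, with 3 residual degrees of freedom. It was also tried on simulated data, where it missed many of the differences built in, most often the smaller ones. A probe that did not pass may therefore still differ. Python 3.11.15 was used for the rest. The number of arrays limits the precision. A fold against a group in which a probe was on no array well above background is given as a bound, from the higher, on each array, of the probe's own level and the lowest level well above background.

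All genes with a symbol are accounted for, by the probe with the highest summed signal, and, of probes without one, the largest 2 differences in each direction where all 4 arrays were well above background. The members and lists were chosen with earlier results of these data known. Of 27 gene identifiers in the probe names, 16 were in the table of pig gene names used, each with the same symbol, and 11 were not. Sequences come from the scanner files and, for primers, from the study's primer list. Named probes were searched for runs of 20 bases shared with other probes. Promoters were not searched.

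Alternatives were normexp background (offset 50), quantile normalization, the deposited values, a trended prior, other filters on dim signal, the replicate number as a block, a random effect of slide, the 4 arrays alone, a 2-fold threshold, the mean of a gene's probes, and each array left out. A block for scan day was chosen after the data were seen.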

Additional observations from a re-analysis of the deposited data

How the results depend on the processing

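The count of 4232 probes that differed lay between 3202 and 4762 under the other processing tried, except that it fell to 2337 with no filter on dim probes, rose to 6124 in the fit to the 4 arrays alone, and was 594 with scan day as a block. With 1 array left out it ranged from 1475 (without the second XCR1- DC array) to 6124 (without either pDC array). It was 1623 without the first XCR1- DC array, 2398 without the first XCR1+ DC array, and 2131 without the second. The lone array is then assumed to vary like the other groups. With the replicate block it was 4099. The replicate numbers are shared across groups in the labels with no stated pairing, and the deviations of same-numbered arrays correlated at 0.27. The Min vs. Max ratio above 2-fold held for 4067 probes and for 3194 in the deposited values, 4064 after quantile normalization, and 2101 after normexp correction. Of 10 genes that passed the test, 5 (XCR1, SIRPA, CSF1R, ID2, and FLT3) passed under each alternative in which they were fitted, except that ID2 and FLT3 did not with scan day as a block, and 5 (BATF3, CADM1, CD14, FOXO3, and UNC93B1) did not. BATF3 was at an adjusted p of 0.051 in limma without the second XCR1- DC array. Without a filter on dim probes, CADM1 (0.079), FOXO3 (0.099), and UNC93B1 (0.14) did not pass. XCR1 and SIRPA have no value where all 4 arrays had to be well above background, and the added 2-fold threshold was applied to the count alone. The cause was not tested. The sign turned for TCF4, at -0.16 with scan day as a block and from -0.12 to 0.28 with 1 array left out, and for NOBOX, at 0.11 with scan day as a block and from -0.27 to 0.0088 with 1 array left out, none of which passed. For dim probes, the signal over background limits the size of a difference.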

Other observations

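The array carries 260 custom probes whose names hold a short form of a human gene identifier and no symbol. Of the 208 that were tested, 31 (14.9%) were higher in XCR1+ DC and 59 (28.4%) were higher in XCR1- DC, beside 7.78% and 8.26% of all tested probes, and their median difference was -0.35. The probes were picked for this array by its designers, some repeat the sequences of the named genes, and no gene was named from these identifiers.

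Probes that were higher in XCR1+ DC had a median G and C content of 40%, against 41.7% for those higher in XCR1- DC and 41.7% for tested probes that did not differ.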
